A study of Mus musculus with 18 samples.

Results

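The genes described here encode acute phase proteins of the liver, the serum amyloid A proteins (Saa1, Saa2, Saa3, Saa4), orosomucoid 1 (Orm1), C-reactive protein (Crp), haptoglobin (Hp) and the 3 fibrinogen chains (Fga, Fgb, Fgg). They were taken as a named list, chosen with earlier results of these data known, were found by symbol in the GENCODE annotation of the mouse genome (mm10), and make up 10 of its 21951 protein-coding genes. For each gene, the gene body plus 50 kb on both sides was intersected with the 6 lists of ChIP-Seq regions from young, old, wild-type and Zmpste24 mutant livers. The 4 Saa genes on chromosome 7 and the 3 fibrinogen genes on chromosome 3 were treated as clusters, which with Orm1, Crp and Hp gave 5 loci. Genes of a cluster share a window and often the same regions, so they are not separate observations.

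Hepatocytes secrete acute phase proteins into the blood, and during inflammation interleukin-6 and interleukin-1 raise the output of many of them through STAT3, C/EBP and NF-kB factors. Fibrinogen is the precursor of the fibrin clot, haptoglobin binds free hemoglobin, orosomucoid carries small lipophilic molecules, C-reactive protein is a pentraxin that recognises microbial and damaged cell surfaces, and serum amyloid A proteins travel on high-density lipoprotein. Foxa2 is a winged-helix pioneer factor that binds nucleosomal DNA and is expressed in hepatocytes. Lamin B1 lines the inner nuclear membrane, and the large stretches of chromatin that touch it, the lamina-associated domains, as well as regions with trimethylated lysine 9 of histone H3 (H3K9me3), are as a rule poor in active genes.

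Chromatin came from livers of male C57BL/6 mice. Lamin B1 and H3K9me3 were profiled in wild-type mice at 3 months (young) and 21 months (old), with 2 replicates per antibody and age. Foxa2 was profiled at 12 weeks in Zmpste24 knockout mice, which lack in all tissues the metalloprotease that matures prelamin A, and in their wild-type littermates, with 3 replicates per genotype. The mice of the lamin B1 and H3K9me3 experiment thus differed in age and those of the Foxa2 experiment in genotype, and whole liver was used in both, so hepatocytes and other liver cells were not separated.

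The authors merged the reads of the replicates before calling regions, so each condition has 1 list of positions without signal, score, read depth or replicate spread. No value below therefore has an error between mice and none was tested; counts are given beside the same count over all protein-coding genes. The lists held 1624 young and 1519 old lamin B1 domains, which covered 17.6% and 35.1% of the genome, 2784 young and 2496 old H3K9me3 regions (21.7% and 23.3%), and 4960 wild-type and 8177 mutant Foxa2 sites. The age of the H3K9me3 lists is known from their names alone, and their numbers of regions differ from those in the study's text. As a check of the tissue, a Foxa2 site lay within 50 kb of 5 of 6 hepatocyte marker genes in wild-type and 4 of 6 in mutant livers, and of 1 and 3 of 13 marker genes of other liver cells. Over all protein-coding genes the shares were 30.6% and 38.5%. The markers were chosen with earlier results of these data known, and Alb, Apoa1, Ttr and Serpina1a are also among the pathway genes described below, so the check is not independent.

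None of the 10 genes lay in a lamin B1 domain in young livers, and 6 did in old livers. The 6 genes were Saa1, Saa2, Saa3, Saa4, Orm1 and Hp, and each of their bodies was covered by the domain. Crp, Fga, Fgb and Fgg lay outside the domains at both ages. Of all protein-coding genes, 38.8% overlapped a domain in young and 64.8% in old livers, so the members stood below the young background and near the old one. The class into which the 6 genes fell, a domain in old livers alone, held 30.1% of all genes, and the class of the other 4 genes, no domain at either age, held 31.1%. Domains at both ages, which held 34.7% of all genes, and domains in young livers alone (4.14%) held no member. Most of these genes are short, and of the protein-coding genes of at most 10 kb, 32.1% lay in a young domain, 56.3% in an old domain and 26.6% in an old domain alone. With 50 kb on both sides, no member window touched a young domain (44.4% of all genes) and 7 touched an old one (68.5%), Crp being the seventh.

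No member overlapped an H3K9me3 region at either age. Over all genes, 16.5% did in young and 29.6% in old livers, and 63.6% did at neither age, 9.78% at both, 19.8% in old alone and 6.76% in young alone. With 50 kb on both sides, 2 member windows, those of Hp and Fgg, touched a young region (25.6% of all genes) and 3, those of Saa3, Saa4 and Hp, an old region (41.6%). The class that the Saa genes, Orm1 and Hp share, inside an old lamin B1 domain, outside the young ones and outside H3K9me3 at both ages, held 16.3% of all genes. The class of Crp and the fibrinogen genes, outside every lamin B1 and H3K9me3 region, held 24.1%.

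**Figure D1:**
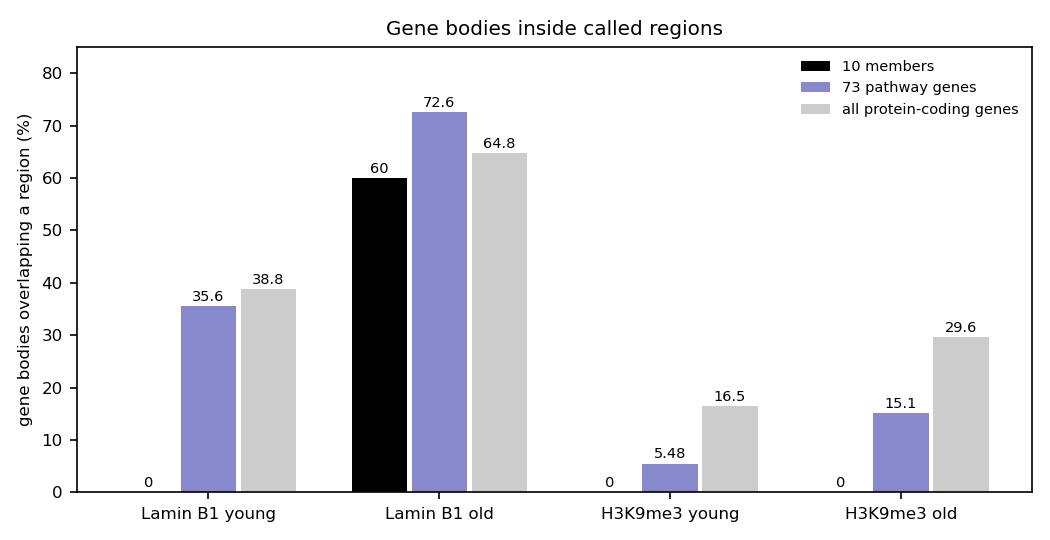
Percent of genes whose body overlaps a region of each list (y axis) for the 10 acute phase and fibrinogen genes (black), 73 other genes of the acute phase pathway and coagulation (blue) and all protein-coding genes (grey). The black bars are at 0 in young lamin B1 and at both ages of H3K9me3, and at 6 of 10 genes in old lamin B1, beside 64.8% of all genes.

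Foxa2 sites lay within the windows of 8 of 10 genes in wild-type and 9 of 10 in mutant livers. Of all protein-coding genes, 30.6% had a site in the window in wild-type and 38.5% in mutant livers, and 19.2% had sites in both. The Saa genes, Hp and the fibrinogen genes had sites in both genotypes, Crp had sites in mutants alone (19.3% of all genes) and Orm1 had none in either genotype (50.1%). Among genes of at most 10 kb, the shares with a site were 23% in wild-type and 28.3% in mutant livers. The 5 loci together held 10 wild-type and 11 mutant sites, and 7 and 6 of these were at the fibrinogen cluster. Sites called in both genotypes, by an overlap of at least 1 bp, were 6 of the 10 in wild-type livers (60%), against 27.2% of the whole wild-type list, and 6 of the 11 in mutants (54.5%), against 16.7% of the whole mutant list. No young lamin B1 domain reached any of the 5 windows, so no site there could lie in one. Over the whole lists, 35.6% of wild-type and 28.1% of mutant sites did. In old lamin B1 domains were 3 sites of each genotype, all at the Saa cluster and Hp, against 63.6% and 49.3% of the lists. These counts restate the domain status of the windows, since the fibrinogen window, with most of the sites, held no old domain.

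**Figure D2:**
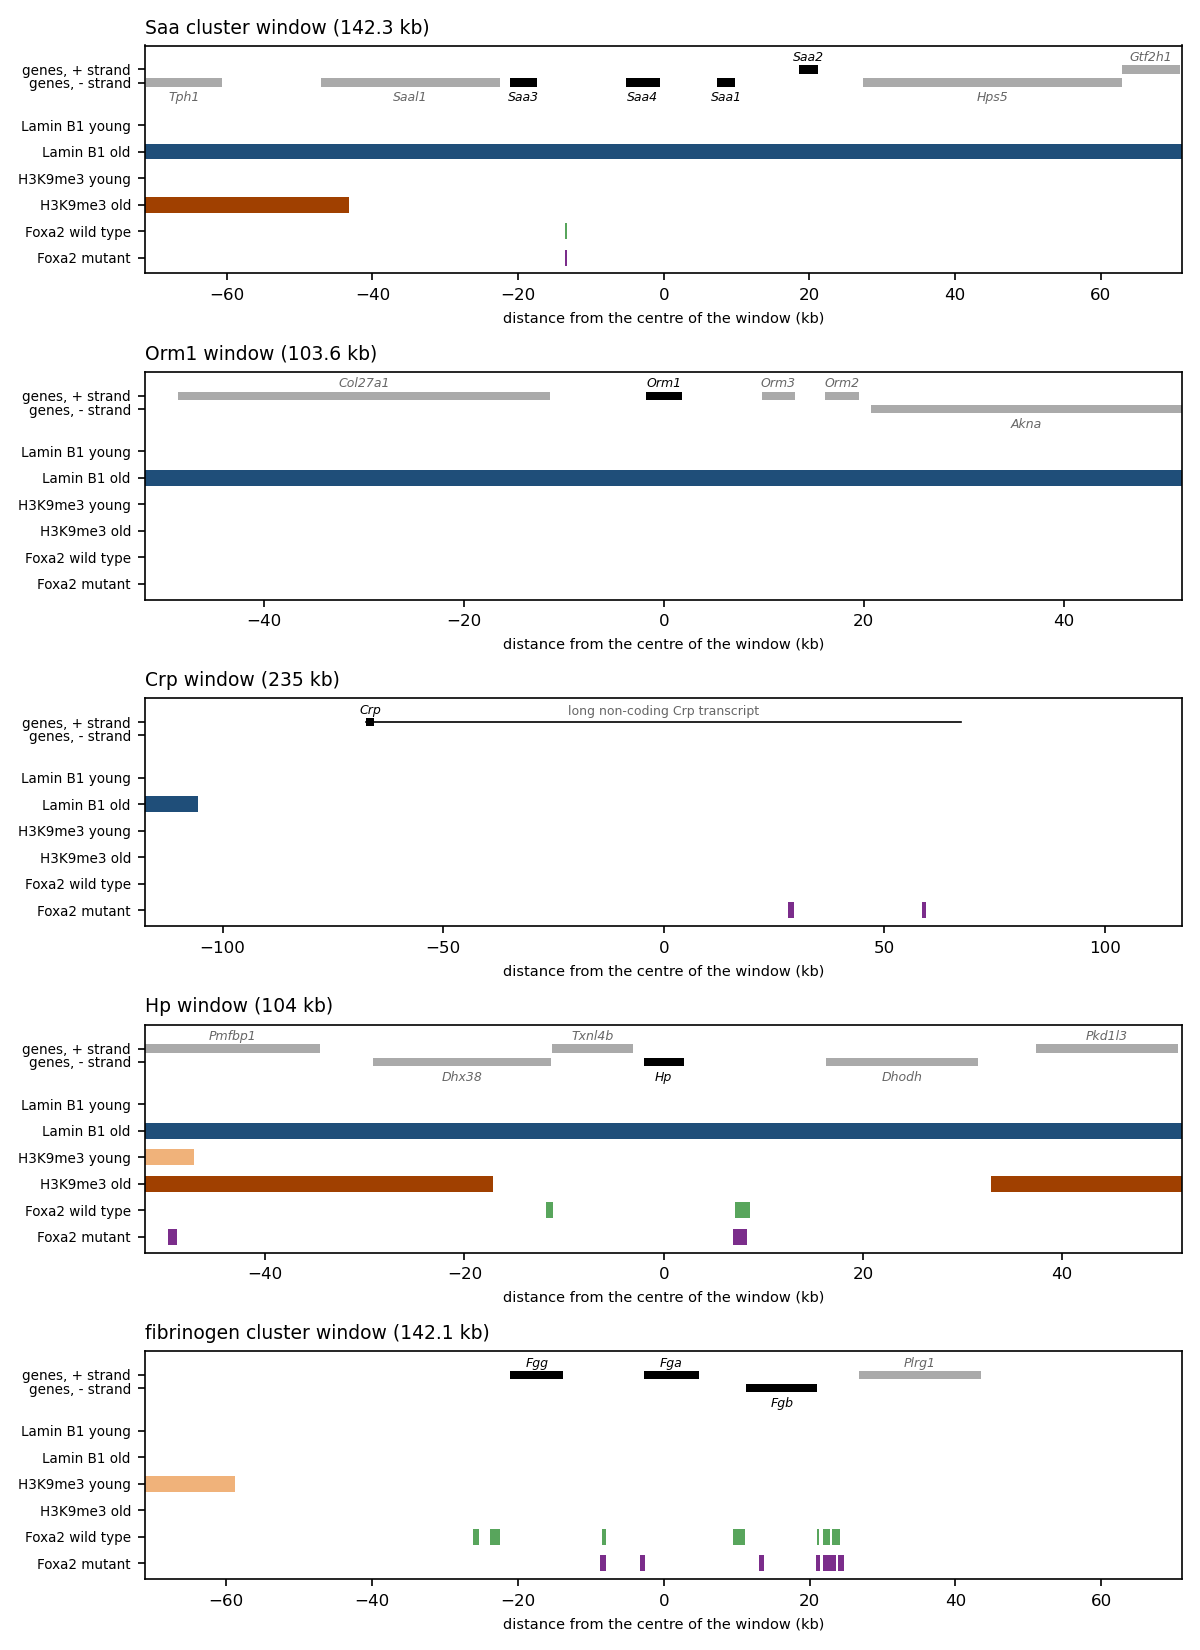
Maps of the 5 locus windows, with distance from the centre of the window in kb on the x axis and, from top to bottom, protein-coding genes by strand (members in black, the long non-coding Crp transcript as a line), lamin B1, H3K9me3 and Foxa2 regions. Old lamin B1 domains fill the Saa, Orm1 and Hp windows, young domains reach none of the 5 windows, and the fibrinogen window holds the most Foxa2 sites of the 5.

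The Saa genes encode small apolipoproteins. Saa1 and Saa2 are the main circulating acute phase forms, Saa3 is made in several tissues upon inflammation, and Saa4 is a constitutive form. Saa3 (chr7:46711998-46715700), Saa4 (chr7:46727998-46732603) and Saa1 (chr7:46740497-46742980) lie on the minus strand and Saa2 (chr7:46751790-46754313) on the plus strand. The window of 142 kb was covered by an old lamin B1 domain over 100% of its length. This domain, chr7:44200001-47170000, was 2970 kb long and contained the start sites of 134 protein-coding genes. In young livers 3 domains covered 40.4% of it, and the nearest of these to the cluster, chr7:45800001-46020000, ended 692 kb from Saa3 and 732 kb from Saa2. H3K9me3 covered 3.70% of the old domain in young and 63.97% in old livers. An old H3K9me3 region of 780 kb, chr7:45910001-46690000, entered the window over 28 kb (19.7%) and ended 22 kb from Saa3, with the neighbouring gene Tph1 and the 3' end of Saal1 inside it, whereas the nearest young H3K9me3 region was 536 kb from Saa2.

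The Saa window held 1 Foxa2 site in each genotype, and they overlapped. The wild-type site, chr7:46719640-46719819, was 180 bp wide, the narrowest at the 5 loci, and the mutant site, chr7:46719570-46719848, contained it whole and was 279 bp wide. By position both lay in the domain called in old livers and outside the young domains, between Saa3 and Saa4. They were nearest to Saa3, whose start site was 3.94 kb from the wild-type and 3.87 kb from the mutant site. The distances from the wild-type site to the start sites of Saa4, Saa1 and Saa2 were 12.8, 23.2 and 31.97 kb. GENCODE places no gene at the site, while RefSeq has a predicted non-coding gene, Gm31882, across it, and its predicted Saa3 transcript has a first exon of 24 bp inside the mutant but not the wild-type site. The wild-type site is printed because it is the single Foxa2 site of the cluster and is bound in both genotypes, and the capitals mark its 1 forkhead word. Forkhead words are here 7-base forms of the consensus that Foxa2 binds, searched on both strands, and this one is TGTTTAC on the minus strand.
Saa site (mm10, chr7:46719640-46719819, plus strand): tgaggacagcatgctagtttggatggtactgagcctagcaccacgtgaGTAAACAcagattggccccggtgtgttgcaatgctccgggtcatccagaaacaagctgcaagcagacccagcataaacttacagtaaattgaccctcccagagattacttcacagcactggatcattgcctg

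Reads had to align uniquely in this study, which limits what can be seen at near-identical genes. Of the 40-base stretches in the gene body, 39.5% of Saa1 and 38.5% of Saa2 occurred more than once in the genome, and with 60 bases the shares were 27.3% and 26.9%. The shares for 40 bases were 5.60% in Saa3 and 2.65% in Saa4. The 250 bases before the RefSeq start sites of Saa1 and Saa2 were identical at 238 positions, with 11 mismatches and 2 gap positions. Neither of these promoters held a Foxa2 site, and the part of repeated sequence in this was not tested.

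Orm1 encodes orosomucoid 1, also called alpha-1-acid glycoprotein, and lies at chr4:63344560-63348163 on the plus strand, followed by its paralogs Orm3 and Orm2. An old lamin B1 domain of 670 kb, chr4:62940001-63610000, covered its window of 104 kb whole and contained 12 start sites, those of the 3 Orm genes included. Young livers had no lamin B1 domain anywhere in that stretch, and the nearest young domain was 1485 kb away. No H3K9me3 region fell in the old domain at either age, and the nearest to Orm1 was 1015 kb away in young and 1135 kb in old livers. The old domain contained 7 wild-type and 3 mutant Foxa2 sites, but none within 50 kb of Orm1, and the nearest were 87 kb away in wild-type and 87.8 kb in mutant livers. The Orm1 window had a GC content of 50.7%, the highest of the 5 loci and above the upper quartile of all gene windows (47.7%). In the Orm1 body 11.4% of 40-base stretches occurred more than once in the genome.

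Hp encodes haptoglobin, at chr8:109575128-109579172 on the minus strand. Its window of 104 kb was covered whole by an old lamin B1 domain of 470 kb, chr8:109310001-109780000, with 10 start sites. In young livers 2.13% of this domain was covered, at its far end, and the young domain there began 191 kb from Hp. Near Hp, a young H3K9me3 region, chr8:108930001-109530000, ended 45.1 kb from the gene, and in old livers a longer one, chr8:108750001-109560000, ended 15.1 kb from it, the shortest such distance of any member in old livers. A second old region of 60 kb, chr8:109610001-109670000, lay on the other side, over Pkd1l3, and Dhodh between them was left out. H3K9me3 thus covered 4.68% of the window in young and 51.9% in old livers, and Hp itself lay in the gap.

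Both genotypes had 2 Foxa2 sites in the Hp window, of which 1 was shared. The shared sites, chr8:109584307-109585839 in wild-type and chr8:109584115-109585519 in mutant livers, overlapped by 1213 bp and began 5.13 and 4.94 kb upstream of the Hp start site. Each held 4 forkhead words, the most of any site at the loci together with a wild-type site downstream of Fgb. The other wild-type site, chr8:109565380-109566010, contained the divergent start sites of the neighbours Dhx38 and Txnl4b, a splicing helicase and a spliceosome component. The other mutant site, chr8:109527369-109528288, lay within Pmfbp1, with its midpoint in an intron and an exon beside it, near the edge of the window and inside the H3K9me3 region of both ages, and had no forkhead word. Of the 10 wild-type and 11 mutant sites at the loci it alone lay in H3K9me3, against 21.7% of all mutant sites in the young and 22.5% in the old regions, and 19.5% and 23% of all wild-type sites. Few sites there could, since H3K9me3 covered at most 8.64% of any of the locus windows in young livers. In old livers it covered none of the Orm1, Crp and fibrinogen windows, and the last held most of the sites. The 300 bases shown are from the shared site, with 3 of the forkhead words in capitals, first TGTTTGC on the plus strand and then TGTTTAC once on each strand.
Hp upstream (mm10, chr8:109584907-109585206, plus strand): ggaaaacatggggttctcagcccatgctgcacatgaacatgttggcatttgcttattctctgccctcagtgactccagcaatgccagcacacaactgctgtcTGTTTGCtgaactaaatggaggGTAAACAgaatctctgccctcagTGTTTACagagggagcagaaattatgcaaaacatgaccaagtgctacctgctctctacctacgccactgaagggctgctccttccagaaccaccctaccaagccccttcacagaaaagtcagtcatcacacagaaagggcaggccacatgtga

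Crp encodes C-reactive protein. Its coding transcript, chr1:172698055-172699962 on the plus strand, is 1908 bp long, but GENCODE adds a non-coding transcript that reaches to 172833031 and makes the window 235 kb long. No lamin B1 domain covered Crp at either age. An old domain of 730 kb, chr1:171930001-172660000, ended 38.1 kb before the gene and covered 5.08% of the window, whereas the nearest young domain was 1218 kb away. H3K9me3 ended 68.1 kb from the gene at both ages. The window held no wild-type Foxa2 site and 2 mutant sites, chr1:172793801-172795007 and chr1:172824175-172825064, which lay 96.4 and 127 kb downstream of the start site, in the span of the long transcript. The second was nearer to the start of Apcs, which encodes the related pentraxin serum amyloid P component, at 70.4 kb. Each site held 1 forkhead word, TGTTTGC, and repeats made up 37.9% and 49.3% of their bases. With the gene as RefSeq gives it (1911 bp), the window held no Foxa2 site in either genotype, so the place of Crp among the genes with mutant sites rests on the long transcript.

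Fibrinogen is assembled from pairs of 3 chains, which neighbouring genes encode. Fgg (chr3:83007724-83015049) and Fga (chr3:83026076-83033627) lie on the plus strand and Fgb (chr3:83040141-83049863) on the minus strand, followed by Plrg1, a spliceosome gene. The window of 142 kb held no lamin B1 domain at either age, and the nearest were 540 kb from Fgb in old and 1340 kb in young livers. No H3K9me3 region overlapped the genes. A young region of 430 kb, chr3:82540001-82970000, entered the window over 12.3 kb and ended 37.7 kb from Fgg, and no part of it was covered in old livers. The nearest old region, chr3:83100001-83140000, began 50.1 kb from Fgb, just outside the window.

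The fibrinogen cluster held 7 wild-type and 6 mutant Foxa2 sites, or 4.93 and 4.22 per 100 kb, against 0.187 and 0.309 per 100 kb over the genome. Of all protein-coding genes, 28 (0.128%) had at least 7 wild-type sites and 73 (0.333%) at least 6 mutant sites in their windows, the 3 fibrinogen genes included. The mutant list had more sites genomewide but 1 fewer at this cluster. Among the 7 wild-type sites 4 had a mutant counterpart, and 4 of the 6 mutant sites had one in wild-type livers. By nearest start site, the wild-type sites fell to Fgb (4), Fgg (2) and Fga (1), and the mutant sites to Fgb (3) and Fga (2), with the last nearest to Plrg1.

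**Figure D3:**
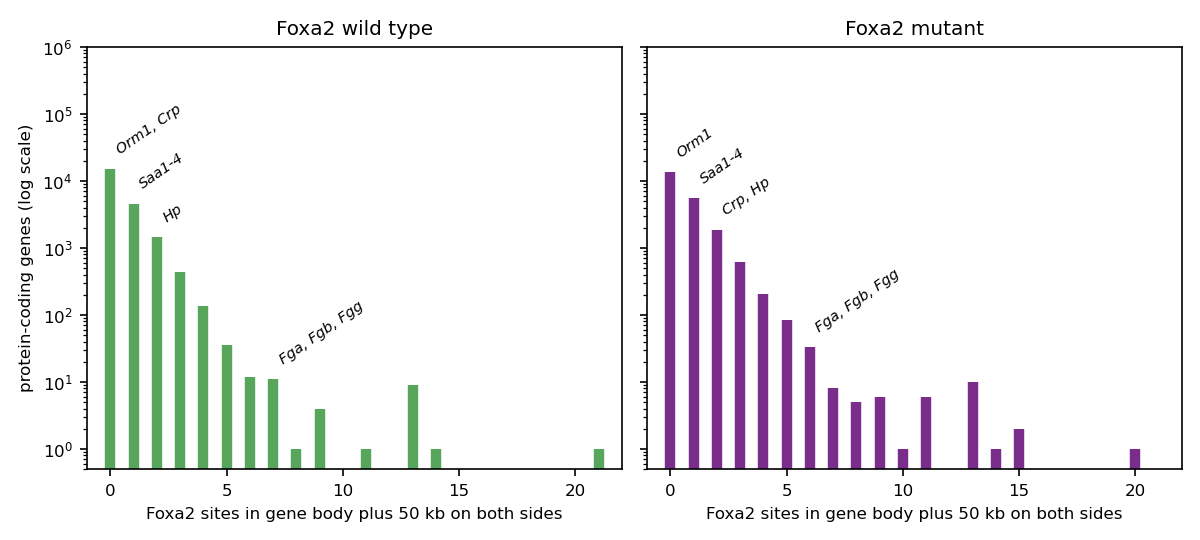
Number of protein-coding genes (y axis, log scale) by the number of Foxa2 sites in the gene body plus 50 kb on both sides (x axis), in wild-type (left) and mutant livers (right), with the members named above their bar. Fga, Fgb and Fgg share 7 wild-type and 6 mutant sites, in the tail that holds 0.128% and 0.333% of genes, whereas the other members have 2 sites or fewer.

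Fgb had a Foxa2 site at its start in both genotypes, chr3:83049796-83050147 in wild-type (352 bp) and chr3:83049731-83050279 in mutant livers (549 bp). Of all protein-coding genes, 2.06% had the start inside a wild-type site and 1.22% inside a mutant site. The 250 bases before the Fgb start lie inside both sites. They held a STAT-type word (TTCNNNGAA) at -162, a forkhead word (TATTTAC, minus strand) at -105, an interleukin-6 response word (CTGGGAA) at -91 and a C/EBP-type word (TTGCNNAA) at -80, counted from the RefSeq start. These words were searched on both strands from 250 bases before to 50 after the start, and were present in 8.3%, 3.04%, 11.1% and 10.8% of 32851 RefSeq promoters. They were chosen after the lists had been seen, and a match is not evidence of binding. The sequence is shown with the 4 words in capitals.
Fgb promoter (mm10, chr3:83049864-83050113, minus strand): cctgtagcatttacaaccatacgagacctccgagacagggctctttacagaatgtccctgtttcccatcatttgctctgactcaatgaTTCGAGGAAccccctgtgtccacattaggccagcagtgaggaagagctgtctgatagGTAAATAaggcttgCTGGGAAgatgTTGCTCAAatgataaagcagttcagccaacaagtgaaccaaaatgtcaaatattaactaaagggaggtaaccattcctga

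Further wild-type sites lay upstream of Fgb at chr3:83050644-83051561 and chr3:83051835-83052996. In mutants the corresponding sites had other borders, since chr3:83050664-83052421 spanned most of the first and part of the second, and chr3:83052669-83053523 began inside the second and ended closer to Plrg1. Both stretches below lie within a site of each genotype and show the forkhead word TGTTTAC in capitals, on the minus strand in the first and on the plus strand in the second.
Fgb upstream 1 (mm10, chr3:83050752-83051051, plus strand): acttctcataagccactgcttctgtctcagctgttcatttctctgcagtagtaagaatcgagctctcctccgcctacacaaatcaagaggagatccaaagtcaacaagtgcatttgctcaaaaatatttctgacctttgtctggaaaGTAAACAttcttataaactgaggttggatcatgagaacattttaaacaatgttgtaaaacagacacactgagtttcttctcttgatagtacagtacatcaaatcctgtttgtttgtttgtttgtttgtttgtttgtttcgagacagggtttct
Fgb upstream 2 (mm10, chr3:83052687-83052986, plus strand): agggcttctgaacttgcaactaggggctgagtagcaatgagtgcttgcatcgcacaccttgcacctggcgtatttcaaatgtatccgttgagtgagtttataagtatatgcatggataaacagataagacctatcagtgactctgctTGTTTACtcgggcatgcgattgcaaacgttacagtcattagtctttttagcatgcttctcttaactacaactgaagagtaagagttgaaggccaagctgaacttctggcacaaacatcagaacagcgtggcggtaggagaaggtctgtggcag

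The genotypes differed at the other ends of the cluster. At Fga, a mutant site, chr3:83025572-83026270, contained the start site, and the nearest wild-type site was 5.20 kb from it. That wild-type site, chr3:83020321-83020878, overlapped a mutant site, so the start of Fga was in a mutant site alone. At Fgg, wild-type sites lay upstream at chr3:83002684-83003523 and chr3:83004944-83006295, both in the non-coding gene Gm30097 on the opposite strand, and neither was called in mutants. The nearest site to the Fgg start was therefore 1.43 kb away in wild-type and 12.4 kb in mutant livers. A wild-type site of 1695 bp, chr3:83038302-83039996, the widest of that genotype at the loci, lay between the 3' ends of Fga and Fgb and held 4 forkhead words, and a mutant site, chr3:83041874-83042517, had its midpoint in the 3' untranslated region of Fgb. These were called in 1 genotype each, and since the lists carry no signal, a site missing from a list cannot be told apart from one just under the threshold.

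The Fga bases are shown because this was the only GENCODE start site of a member within a mutant site alone. The site had none of the 3 forkhead words, and the part of its promoter before the first annotated exon held a STAT-type and a C/EBP-type word, in capitals. The Fgg stretch is from the wild-type site farther from the gene, with the forkhead word TATTTAC (minus strand) in capitals. The site closer to Fgg had no forkhead word.
Fga promoter (mm10, chr3:83025903-83026075, plus strand): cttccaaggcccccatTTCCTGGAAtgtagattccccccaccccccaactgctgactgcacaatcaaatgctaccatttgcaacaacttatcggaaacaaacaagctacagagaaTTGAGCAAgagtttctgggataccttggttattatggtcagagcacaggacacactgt
Fgg upstream (mm10, chr3:83003224-83003523, plus strand): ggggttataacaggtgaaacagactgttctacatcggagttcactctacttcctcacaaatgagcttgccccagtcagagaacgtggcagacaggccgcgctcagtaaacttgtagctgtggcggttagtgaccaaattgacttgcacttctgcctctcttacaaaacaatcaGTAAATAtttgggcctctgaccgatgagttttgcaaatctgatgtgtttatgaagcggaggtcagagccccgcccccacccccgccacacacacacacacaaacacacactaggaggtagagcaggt

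The distance from each start site to the nearest Foxa2 site was much the same in both genotypes, with 3 exceptions. For all Saa genes it was measured to the same pair of overlapping sites. They are therefore not separate cases, and their order follows from their positions. Fgb had a site at its start in both, and Saa3 and Hp had one at 3.87 to 5.13 kb. Start sites within 5 kb of a site made up 5.85% of all genes in wild-type and 5.84% in mutant livers, and among the members were Saa3, Fgb and Fgg in wild-type and Saa3, Hp, Fga and Fgb in mutant livers. Saa4, Saa1 and Saa2 followed, and Orm1 was far from sites in both genotypes. The exceptions were Fga (5.20 kb in wild-type and 0 kb in mutant livers), Fgg (1.43 and 12.4 kb) and Crp (157 and 95.8 kb).

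**Figure D4:**
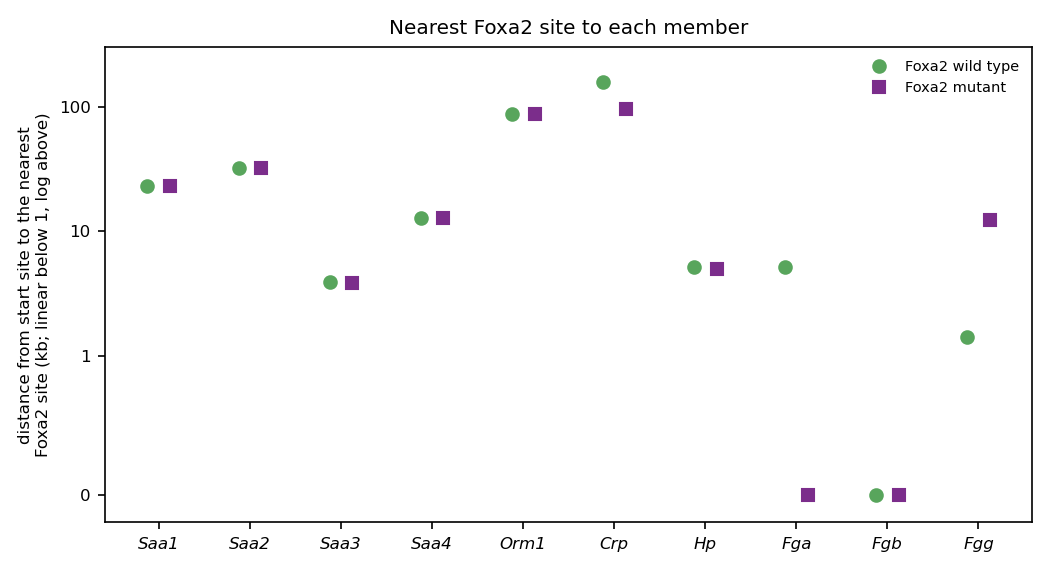
Distance in kb from the start site of each member (x axis) to the edge of the nearest Foxa2 site (y axis, linear below 1 kb and logarithmic above), in wild-type (circles) and mutant livers (squares). The circles and squares lie side by side for the Saa genes, Orm1, Hp and Fgb and apart for Crp, Fga and Fgg.

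The 3 forkhead words were TGTTTAC and its variants, with TATTTAC as the second word and TGTTTGC as the third, and no word can match where another does. At least 1 was present in 8 of the 10 wild-type sites (16 words) and in 8 of the 11 mutant sites (13 words), whereas 56.7% of all wild-type and 52.3% of all mutant sites held one. TGTTTAC itself was in 6 wild-type sites (27.7% of the list) and 5 mutant sites (23.4%). Within the central 300 bp, 4 sites of each genotype held a word, beside 29.7% and 25.4% of the lists. The sites without a word were those at the Fga start, in Pmfbp1, closer to Fgg and between Fgg and Fga, the last in both genotypes. The sites at the loci were 180 to 1695 bp wide in wild-type (median 879 bp) and 279 to 1758 bp in mutant livers (855 bp), close to the medians of the lists, 941 and 889 bp. RefSeq promoter sequence was matched for 8 of the 10 genes, all but Orm1 and Hp. A C/EBP-type word was present in the promoters of Fga, Fgb, Saa1, Saa2, Saa3 and Saa4 (10.8% of all promoters). Those of Saa1 and Saa2 are near-identical (238 of 250 bases) and are not separate cases. An interleukin-6 response word was present in the promoters of Fgb and Fgg (11.1% of all promoters) and a STAT-type word in those of Fga and Fgb (8.3%). A forkhead word was present in those of Fgb and Saa4 (any forkhead word, 11.2% of promoters). None of these words was present in that of Crp.

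The members were set beside 73 other genes of the acute phase pathway, from cytokines to secreted proteins. Of these, 26 lay in a lamin B1 domain in young and 53 in old livers, 29 in old livers alone and 18 at neither age, whereas 4 lay in an H3K9me3 region in young and 11 in old livers, smaller shares than the 16.5% and 29.6% of all genes. A Foxa2 site was within the window of 43 genes in wild-type and 46 in mutant livers. Over all genes the shares in a lamin B1 domain were 38.8% and 64.8%, and those with a Foxa2 site 30.6% and 38.5%. By class, 34.7% of all genes lay in a domain at both ages, 30.1% in old livers alone, 4.14% in young livers alone and 31.1% at neither age. The groups below are to be read against these shares. Among 17 other positive acute phase proteins, 2 lay in a young and 13 in an old domain, and 11 in an old domain alone (30.1% of all genes), the class of the Saa genes, Orm1 and Hp. These included Orm2 and Orm3, which lie in the domain of Orm1 itself and so add no further domain, Hamp, the iron hormone hepcidin, and C3, the central complement component. Itih3 and Itih4 were also in this class, as were Mt1 and Mt2, and the genes of each pair are close neighbours with equal Foxa2 counts. Neighbouring genes of the list share windows and regions, so here and in the groups below they are not separate observations. The 4 of the 17 that lay in a domain at neither age, like Crp and the fibrinogen genes, were Apcs, Cp (ceruloplasmin), Serpina1a (alpha-1 antitrypsin) and Fgl1, a fibrinogen-like protein of the liver. Foxa2 sites were present near 10 of the 17 in wild-type and 9 in mutant livers, for example 2 of each genotype near Hamp, and 1 wild-type and 3 mutant sites near Cp.

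Among 9 negative acute phase proteins, whose output falls in inflammation, 2 lay in a young and 7 in an old lamin B1 domain. All 9 had a Foxa2 site in at least 1 genotype, whereas 50.1% of all protein-coding genes had one in neither. Alb, which encodes albumin, lay outside the domains at both ages and had 2 wild-type and 5 mutant sites, and Ahsg (fetuin-A) lay in an old domain alone and had 4 of each. Of 16 coagulation genes, 6 lay in a young and 8 in an old domain, and 7 at neither age (31.1% of all genes). Among these 7 were F5 and F11, which had 2 wild-type sites each and 5 and 4 mutant sites. Of the others, Klkb1, a neighbour of F11, had 3 wild-type and 6 mutant sites, Kng1 had 2 and 1, and F13b had 1 of each. F9 and Cpb2 had no site in either genotype. A Foxa2 site lay in the window of 12 of the coagulation genes in wild-type (30.6% of all genes) and 10 in mutant livers (38.5%).

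Upstream in the pathway, 5 of 6 cytokine genes lay in an old and 2 in a young lamin B1 domain, with Lif, Osm and Tnf in old domains alone. Of the 6, 1 (Il1a) had a Foxa2 site in wild-type and 3 (Il1a, Lif and Osm) in mutant livers. Lif and Osm are close neighbours with overlapping windows and equal calls, so they are not separate observations. The 2 cytokine genes in a young domain, Il1a and Il1b, are neighbours too. Of 7 receptor genes, 2 (Il6ra and Il6st, which form the interleukin-6 receptor) lay in a domain at both ages and 3 in old livers alone. Foxa2 sites were present near 5 receptor genes in wild-type and 6 in mutant livers, with 7 wild-type and 4 mutant sites at Lifr. That was as many wild-type sites as at the fibrinogen cluster, but in a longer window. Of 10 signalling genes 6 lay in a domain at both ages, Jak1 and Myd88 among them, and of 8 transcription factor genes 5 did, Cebpa among them. Of all protein-coding genes, 34.7% lay in a domain at both ages. The gene of C/EBP delta, Cebpd, lay in a young domain alone. Foxa2 sites lay near 3 signalling genes in wild-type and 6 in mutant livers, and near 4 and 5 transcription factor genes. Old domains alone (30.1% of all genes) held 3 signalling genes, Jak2 and Ikbkb among them, and 1 transcription factor gene, Nfkb1.

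**Figure D5:**
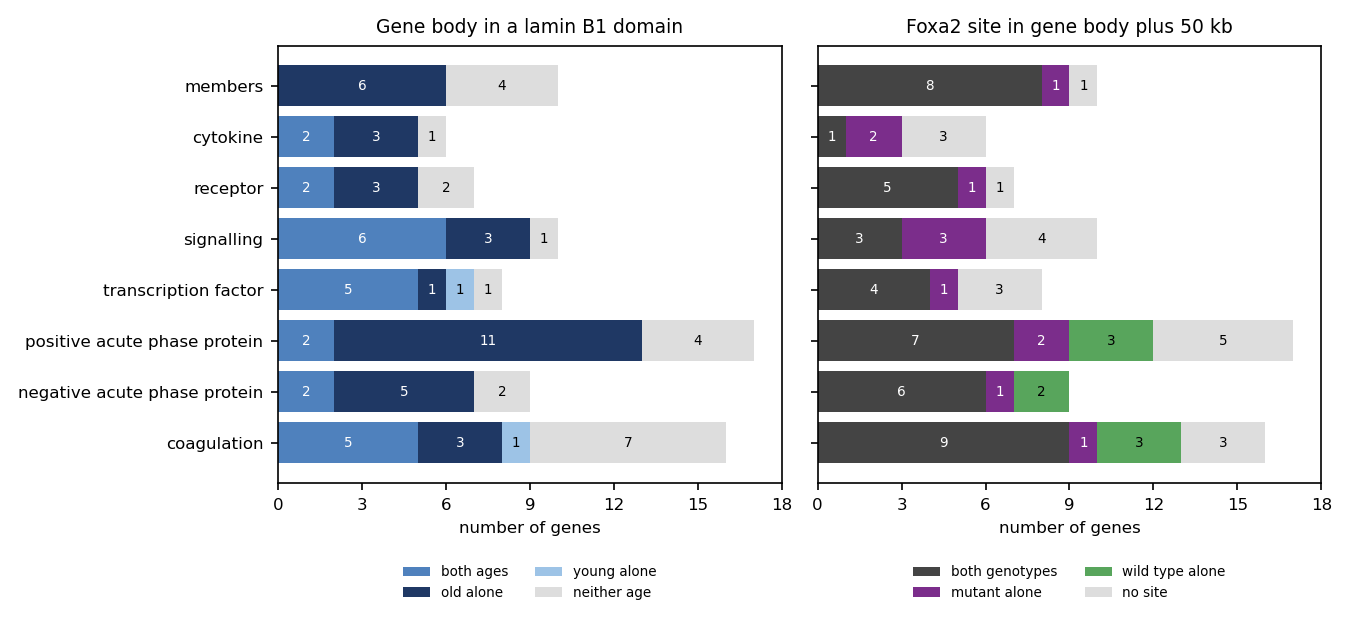
Number of genes (x axis) in a lamin B1 domain at both ages, at 1 age or at neither (left) and with a Foxa2 site in the gene body plus 50 kb in both genotypes, in 1 or in none (right), for the members and 7 groups of the pathway (y axis). The members and the other positive acute phase proteins have 6 of 10 and 11 of 17 genes in old domains alone, and signalling and transcription factor genes have 6 of 10 and 5 of 8 in domains at both ages. Of all protein-coding genes, 30.1% lie in old domains alone and 34.7% in domains at both ages. Neighbouring genes share regions, so the genes of a bar are not all separate observations.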

How the data were processed

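BWA alignment to mm10 (reads of 40 and 60 bp), removal of duplicates, a filter for unique alignments and merging of replicates were done by the authors. The deposited values are genome positions of called regions, with no count, signal or score. Lamin B1 domains were called with Epic (10 kb windows, gap size 3) and Foxa2 sites with PeakSeq against input, after mutant reads were downsampled. For H3K9me3 the methods give no caller, and the submitters' processing notes name SICER. Merging, windows and downsampling fix the borders and numbers of regions.

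Positions were intersected at a minimum of 1 bp with gene bodies of GENCODE vM21 and windows of 50 kb (Python 3.11.15, numpy 2.4.6, matplotlib 3.10.9). Coordinates count the first base as 1. Sequences came from GRCm38.p6 and RefSeq promoters of that build. H3K9me2 was not analysed here. The code was tested on simulated data. Lists hold no replicates, so no test was made, and depth per sample and precision cannot be given. Alternatives changed the overlap rule, flanks, widths, words, gene extents and background. The genes, pathway list, markers and words were chosen with earlier results of these data known. Named are the members, genes in regions or nearest to sites at the loci, and up to 4 pathway genes per role in alphabetical order (lamin B1 status changed between ages, or Foxa2 sites in both genotypes), plus genes behind small counts.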

Additional observations from a re-analysis of the deposited data

How the results depend on the processing

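Members in lamin B1 domains numbered 0 in young and 6 or 7 in old livers by start site, 50% of the gene body, 50 kb flanks, regions of at least 50 kb or RefSeq extents. Of 68 alternatives for the main counts, 56 left the count within 1.5 times or, for shares, close to it, and 12 did not. With 50 kb flanks, 2 members (Hp, Fgg) touched young and 3 (Saa3, Saa4, Hp) old H3K9me3, against 0 by gene body. Loci that touched H3K9me3 (2 at each age) fell to 0 young and 0 old with flanks of 10 kb and rose to 4 old with 100 kb. Sites wider than the median of their list numbered 4 in wild-type and 5 in mutant livers, against 10 and 11, but such a cut by its definition removes a large part of any list. By nearest start site, 5 members had a wild-type site, against 8. With flanks of 10 kb, 27 pathway genes had a wild-type site, against 43. Forkhead words were in 4 sites of each genotype within the central 300 bp, and TGTTTAC alone in 5 mutant sites, against 8. Of 40 alternatives for the percent of each window covered, 12 moved it, with flanks of 10 or 100 kb, at H3K9me3 and at Crp, and none for lamin B1 at the other 4 loci. The RefSeq extents and the background of genes of at most 10 kb were chosen after seeing the data. No paired analysis was possible because each list merges the replicates, which for the same reason could not be left out, and the lists carry no score for a stricter threshold. The lists carry no depth, and the pooled read totals that the study gives, which differ between young and old for both antibodies, were not used here.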
